A study of Mus musculus with 9 samples.

Results

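iECDCs, mouse epicardium-derived cardiosphere cells immortalized with human telomerase, were compared with pECDCs, the primary cells they came from, in gene families beyond replication, the cell cycle, surface markers and growth factors. Members were chosen by their labels, as the 3 untreated iECDC libraries and the 3 pECDC libraries, 6 of the 9 libraries of the series. The other 3 libraries, from cells treated for 3 days with the TGF-β receptor inhibitor SB431542, entered only an alternative fit. Both groups came from C57BL/6 mice and received no treatment, and the labels name the tissue as heart ventricle while the study's methods name epicardium peeled from young adult hearts. iECDCs were at passage 30, after transduction with a lentivirus in which the CMV promoter drives hTERT (the human telomerase reverse transcriptase) and selection with puromycin. pECDCs carried no virus, and their labels and the study's methods give different low passages. Immortalization, drug selection and long culture therefore cannot be told apart in the comparison. The study's methods and figure legends give different numbers of biological replicates per condition, and no source used here says which libraries of a group came from separate animals or cultures. P-values therefore measure the spread between these libraries, which may be technical in part.

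Cardiosphere-derived cells are stromal cells that migrate out of heart tissue and grow as floating spheres. Cells of this kind deposit matrix, secrete cytokines and respond to interferon, retinoids and Wnt ligands. Long culture and immortalization can leave cells that differ in these functions from the tissue they came from, and the comparison asks in which gene families they differ.

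Libraries held 16568306 to 23951392 counts, so that 3 counts, taken as the floor of detection, were 1.25e-05% to 1.81e-05% of a library. This floor covers counting error only. Of 54532 genes, 13752 passed the filter on low counts, and 16.4% of them were called, with 7.21% (992 genes) higher and 9.21% (1266 genes) lower in iECDCs (edgeR quasi-likelihood test, Benjamini-Hochberg adjusted p under 0.05). In counts scaled to library size, the libraries of the groups did not overlap for 5440 tested genes (39.6%). Lack of overlap was thus more common than a call. The third iECDC library stood apart, since its median absolute log2 difference from the other 2 was 0.213 and 0.219, against 0.105 between those 2 and 0.071 to 0.0814 among pECDC libraries. Without it, 15.5% of tested genes were higher and 16.2% lower, and with all 9 libraries in the fit 1.46% were higher and 3.26% lower. For each of 35 lists the counts called higher and lower are therefore given with and without this library, beside the median log2 fold change of its tested members (the list median). The distance of the third iECDC library from the others was not traced to a cause. The shares of all tested genes given here are the background for the list counts in the same fits.

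Checks of the samples came first. Tert, the mouse telomerase gene, stood at 354, 281 and 323 counts in pECDC replicates 1, 2 and 3 and 215, 157 and 93 counts in iECDC replicates 1, 2 and 3 (log2 fold change -0.69, edgeR adjusted p = 0.0292). hTERT itself is a human sequence and not a row of this mouse table, so the transgene could not be checked. Dkc1, which encodes the telomerase partner dyskerin, was 1.35-fold higher (edgeR adjusted p = 0.00149), and it overlaps a gene on the opposite strand. Xist had 0 counts in all 6 libraries. The 4 Y-linked genes listed as checks were all called lower in iECDCs, and on the log2 scale Ddx3y fell by 0.70 and Kdm5d fell by 0.79.

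Cell type markers were read next. Levels differed among the listed stromal markers, of which Vim, Col1a1 and Col1a2 were the 3 most abundant. Vim, an intermediate filament of mesenchymal cells, was at 863, 874 and 895 FPKM in pECDC replicates 1, 2 and 3. In iECDC replicates 1, 2 and 3 it was at 1040, 1080 and 1299 FPKM. Of 11 tested fibroblast and mesenchymal markers, 2 were higher and 6 lower (edgeR, 3 and 7 without the third iECDC library, list median -0.30). The receptor genes Pdgfra and Pdgfrb were 1.48-fold and 1.4-fold lower, and S100a4, which encodes a calcium-binding protein of motile fibroblasts, was 1.91-fold higher. Of 7 tested epicardial and mesothelial markers 1 was higher and 4 lower (edgeR, 2 and 4 without the third iECDC library, list median -0.98), and 2 were lower and 0 higher with all 9 libraries. Wt1, a defining transcription factor of the epicardium, was at or below 0.0921 FPKM, whereas Tbx18 was at 19, 19.5 and 20.3 FPKM in pECDCs and 25, 23.2 and 18.8 FPKM in iECDCs (edgeR adjusted p = 0.257; 0.00031 without the third iECDC library). Krt19, a keratin gene of the mesothelium, was the member called higher, at 18.2, 19.3 and 19.5 FPKM in pECDCs and 31.2, 29.9 and 28.8 FPKM in iECDCs (1.56-fold, edgeR adjusted p = 0.000374; 0.0632 with all 9 libraries). Some defining markers of other cell types were at or near 0, with 0 to 4 counts of Ptprc (leukocytes), 0 to 3 of Pecam1 (endothelium), 0 of Sox10 (neural crest) and 0 to 1 of Myh6 (cardiomyocytes) in a library. Other members were detected. Haematopoietic markers, with Csf1r, Cd14 and Lyz2 the most abundant, summed to 12 to 13.4 FPKM in pECDC libraries and 11.2 to 16.1 FPKM in iECDC libraries. Endothelial markers summed to 5.73 to 6.41 FPKM and 2.48 to 2.87 FPKM. The sums were 1.09 to 1.44 FPKM and 1.69 to 2.44 FPKM for cardiomyocyte markers, and 1.07 to 1.36 FPKM and 0.355 to 0.451 FPKM for neural crest and Schwann markers. Single members of these lists differed nonetheless. Flt1, a VEGF receptor gene on the endothelial list, was 3.35-fold lower and Mbp, on the Schwann list and overlapping a pseudogene, 3.82-fold lower. Lyz2, a macrophage lysozyme gene, was 5.86-fold higher from 0.434, 0.534 and 0.521 FPKM in pECDCs, and Tnnt2, cardiac troponin T, 2.57-fold higher from 0.437, 0.654 and 0.558 FPKM. Fewer cells of a type and less RNA per cell cannot be told apart in bulk libraries.

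**Figure D1:**
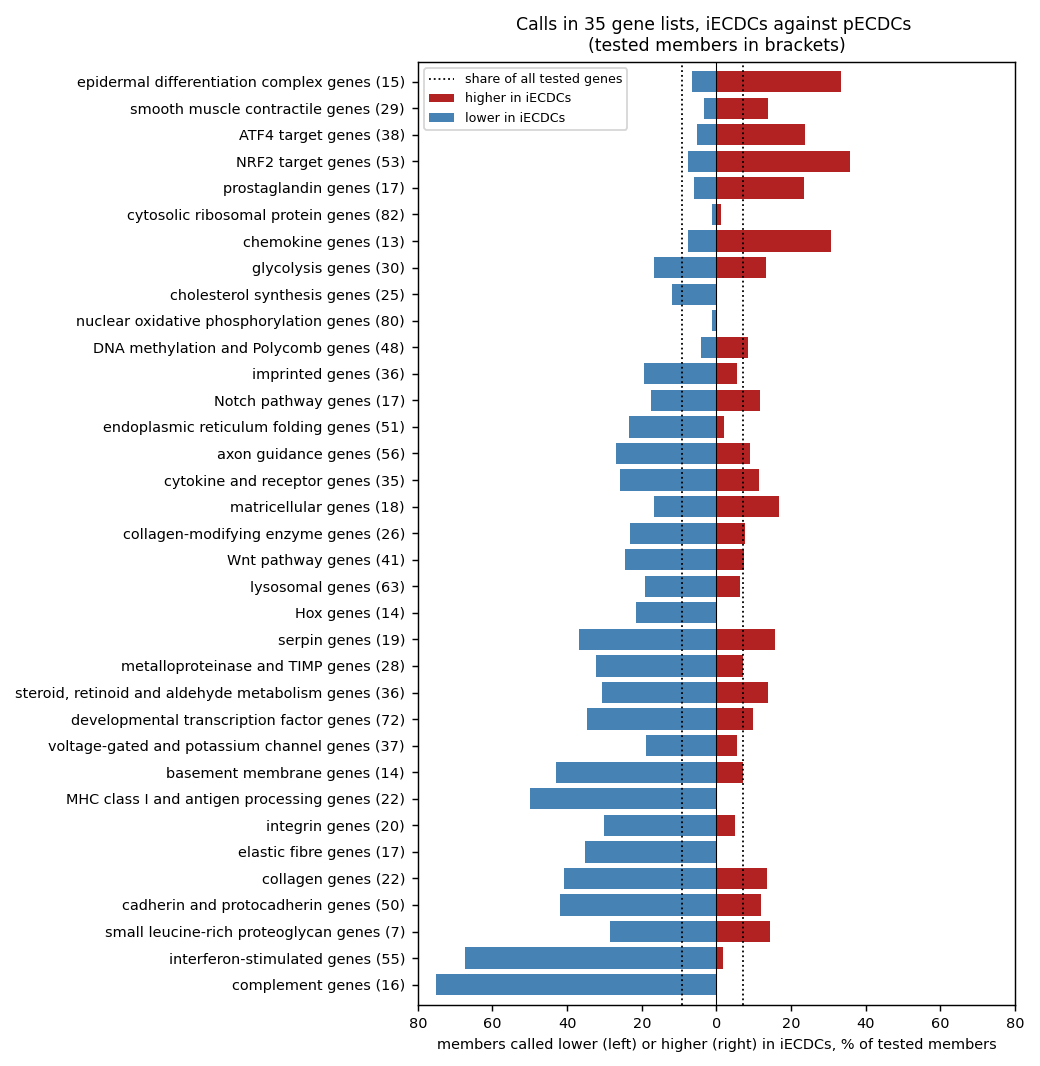
Share of the tested members of 35 gene lists called lower (blue, left) or higher (red, right) in iECDCs than in pECDCs by edgeR at an adjusted p under 0.05, with the number of tested members in brackets. Dotted lines mark the 9.21% lower and 7.21% higher among all tested genes, and lists are ordered by median log2 fold change.

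Interferon-stimulated genes, which defend cells against viruses, were lower in iECDCs in 37 of 55 cases. Interferons signal through transcription factors such as IRF9, which bind a short repeated element in the promoters of interferon-stimulated genes. Of 65 such genes listed, 55 were tested, 37 were lower and 1 was higher, against 9.21% and 7.21% of all tested genes, with a median log2 fold change of -0.69 against 0.00 for all tested genes. Without the third iECDC library 41 were lower and 3 higher. With all 9 libraries in the fit 10 were lower and 1 higher. Shares of all tested genes were 16.2% lower and 15.5% higher without the third iECDC library, and 3.26% and 1.46% with all 9 libraries.

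The interferon-stimulated response element core, searched on both strands as GAAA, any 2 bases and GAAA again, was found in the promoters of Isg15, Bst2 and Ifitm3. These are printed because Isg15 had the largest decrease in the list among members at 2 FPKM or more and the others were among its most abundant members. Ifi27, also among the most abundant, is not printed, as no match was recorded for it. The windows run from 250 bases before to 50 bases after the gene start, from RefSeq on GRCm38.p6, read 5′ to 3′ on the gene's strand, with the matched letters in capitals. They lie at chr4:156200769-156201068, chr8:71537423-71537722 and chr7:141010695-141010994, all on the minus strand.
Isg15: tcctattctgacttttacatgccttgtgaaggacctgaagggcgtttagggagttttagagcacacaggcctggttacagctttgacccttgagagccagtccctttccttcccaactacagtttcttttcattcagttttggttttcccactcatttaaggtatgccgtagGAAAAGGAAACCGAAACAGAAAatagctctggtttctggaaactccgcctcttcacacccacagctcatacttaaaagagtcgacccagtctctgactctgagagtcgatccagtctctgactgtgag
Bst2: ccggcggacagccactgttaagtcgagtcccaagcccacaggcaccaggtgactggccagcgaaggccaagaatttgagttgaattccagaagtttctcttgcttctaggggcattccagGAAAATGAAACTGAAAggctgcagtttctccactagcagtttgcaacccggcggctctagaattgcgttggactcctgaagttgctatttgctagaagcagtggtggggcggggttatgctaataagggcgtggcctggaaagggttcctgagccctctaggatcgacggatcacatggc
Ifitm3: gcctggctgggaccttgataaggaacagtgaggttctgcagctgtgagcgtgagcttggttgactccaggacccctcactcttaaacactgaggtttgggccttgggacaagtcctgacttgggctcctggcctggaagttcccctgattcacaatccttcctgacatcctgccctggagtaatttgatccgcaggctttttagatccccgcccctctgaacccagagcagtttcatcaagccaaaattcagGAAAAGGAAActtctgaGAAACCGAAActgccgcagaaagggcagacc
Matches overlap one another in Isg15 and Bst2, where the repeat runs on without a break. A promoter was found for 41 of the 55 tested members, and 22 of them (53.7%) held the letters, as did 16 of the 28 lower members, 6 of the 12 members not called and 0 of the 1 higher. Among all 27025 genes with a RefSeq promoter 3.99% held them, and among those tested 3.59%. A match describes the letters and does not show binding.

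Isg15, on chromosome 4 from 156199424 to 156200818, encodes a ubiquitin-like protein that is attached to other proteins in antiviral defence. It stood at 6.63, 9.57 and 9.01 FPKM in pECDC replicates 1, 2 and 3 and at 1.44, 1.05 and 3.1 FPKM in iECDC replicates 1, 2 and 3, a log2 fold change of -2.21 ± 0.32 (SE; edgeR adjusted p = 0.00212). All iECDC libraries lay below all pECDC libraries, with the third the highest of them. Bst2, which encodes the virus-tethering protein tetherin, was among the most abundant members. Its values of 212, 237 and 260.0 FPKM in pECDCs and 139, 159 and 139.8 FPKM in iECDCs did not overlap (1.63-fold lower, edgeR adjusted p = 0.00105, and 0.0024 with all 9 libraries). Ifitm3, a membrane protein that blocks virus entry, was at 559, 584 and 612 FPKM in pECDCs and 433, 471 and 507 FPKM in iECDCs, a smaller difference of 1.26-fold (edgeR adjusted p = 0.0168; 0.0732 with all 9 libraries). Irf7, a transcription factor that amplifies the interferon response, was 2.78-fold lower, though its reads may be mixed with those of the more abundant Phrf1 on the opposite strand. The GTPase gene Iigp1, of a family of close copies, was 3.2-fold lower. Exceptions were Ifi47, another interferon-induced GTPase that overlaps an olfactory receptor gene, which was 1.9-fold higher (edgeR adjusted p = 0.000636), and the abundant Ifi27, at 77.5, 72.9 and 85 FPKM in pECDCs and 78.6, 89.6 and 67.4 FPKM in iECDCs, where the groups overlapped.

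MHC class I molecules present peptides to T cells after the peptides are cut by the proteasome and carried by the TAP transporter. Of 22 tested genes of this pathway 11 were lower and 0 higher (edgeR, 12 and 1 without the third iECDC library, list median -0.22). H2-K1 stood at 34.5, 35.7 and 36.4 FPKM in pECDCs and 24, 22.7 and 20.6 FPKM in iECDCs and was 1.6-fold lower (edgeR adjusted p = 0.000391; 0.117 with all 9 libraries), H2-T23 was 2.09-fold lower and the transporter gene Tap2 1.52-fold lower. B2m, the light chain, was at 514, 529 and 553 FPKM in pECDCs and 512, 514 and 462 FPKM in iECDCs and was not called (edgeR adjusted p = 0.292). H2 genes are near-identical copies, so reads could be split among them.

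Complement genes were lower as well. Complement is a cascade of serum proteases that marks and lyses cells, and stromal cells make several of its early components and inhibitors. Of 16 tested genes 12 were lower and 0 higher (edgeR), with a median log2 fold change of -0.70, and without the third iECDC library 12 were lower and 1 higher. With all 9 libraries 3 were lower. Shares of all tested genes called lower were 9.21% in the main fit, 16.2% without the third iECDC library and 3.26% with all 9 libraries. Clu, which encodes clusterin, an inhibitor of the final lytic complex, was at 12.7, 13.7 and 14.4 FPKM in pECDCs and 4.99, 5.49 and 3.92 FPKM in iECDCs. Every iECDC value lay below every pECDC value, 2.85-fold lower on average (edgeR adjusted p = 7.24e-05; 0.19 with all 9 libraries). C1s1, the protease of the first component, was 2.84-fold lower, Serping1, which inhibits that protease, 2.42-fold lower, and Cd55, a membrane protein that dismantles the convertases, 1.75-fold lower. The scavenger receptor gene Colec12 had the smallest difference of those called, a log2 fold change of -0.26.

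**Figure D2:**
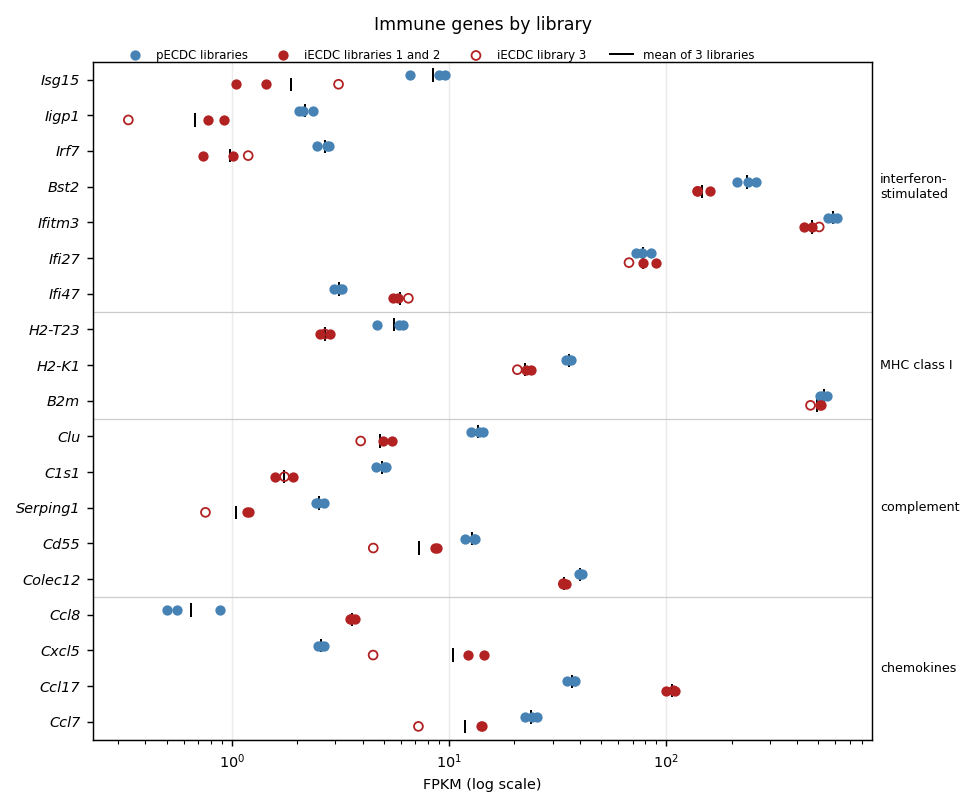
FPKM on a log scale in each library for named interferon-stimulated, MHC class I, complement and chemokine genes; blue points are pECDC libraries, filled red points iECDC libraries 1 and 2, open red points iECDC library 3, and bars the mean of 3 libraries. The iECDC values of Isg15, Bst2, H2-K1 and Clu lie left of all pECDC values, while those of Ccl17 and Ccl8 lie to the right.

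Secreted immune signals went in both directions. Of 13 tested chemokine genes 4 were higher and 1 lower (edgeR, 5 and 3 without the third iECDC library), against 7.21% and 9.21% of all tested genes. The list median of 0.08 became -0.14 without the third iECDC library. Ccl17, a chemokine for regulatory and helper T cells, was at 38.2, 35 and 37.7 FPKM in pECDCs and 109.8, 100.2 and 108 FPKM in iECDCs, 2.84-fold higher with all iECDC libraries close together (edgeR adjusted p = 4.11e-06). Ccl8 and Cxcl5, which attract monocytes and neutrophils, were 5.48-fold and 4.05-fold higher, and for Cxcl5 the third iECDC library, at 4.47 FPKM, was well below the 14.5 and 12.2 of the others. Ccl7, also a monocyte chemokine, was 2.03-fold lower.

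Of 35 tested cytokine and receptor genes 4 were higher and 9 lower (edgeR, 4 and 14 without the third iECDC library, list median -0.13). Il33, an alarmin released by injured stromal cells, had 167, 148 and 174 counts in pECDCs and 2, 2 and 0 counts in iECDCs, at least 43.6-fold lower against the floor of 3 counts in a library (edgeR adjusted p = 5.26e-06). Lif and Il11, cytokines of the interleukin-6 family, were 1.86-fold and 2.02-fold lower. Both macrophage growth factors that share a receptor were higher, the abundant Csf1 at 538, 520.0 and 518 FPKM in pECDCs and 636, 667 and 731 FPKM in iECDCs (1.28-fold, edgeR adjusted p = 0.0118) and Il34 2.51-fold. Among 19 tested serpin genes, which encode protease inhibitors, 3 were higher and 7 lower (edgeR, 5 and 9 without the third iECDC library, list median -0.16). Serpinb2, which inhibits plasminogen activators, was 2.72-fold lower.

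More genes of the antioxidant response were higher than lower in iECDCs. NRF2 is a transcription factor that is degraded at rest and, under oxidants or electrophiles, switches on enzymes that make glutathione, reduce peroxides and handle haem and iron. Of 57 listed target genes 53 were tested, 19 were higher and 4 lower, with a median log2 fold change of 0.16 (edgeR). Without the third iECDC library 27 were higher and 7 lower. With all 9 libraries in the fit 0 were higher and 2 lower. Of all tested genes 7.21% were higher and 9.21% lower in the main fit. These shares were 15.5% and 16.2% without the third iECDC library and 1.46% and 3.26% with all 9 libraries.

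Letters of the antioxidant response element core, TGACNNNGC on either strand, were searched in the same kind of window, a search added after the values were seen. The promoters of Gsta3 and Srxn1 are printed because these genes are 2 of the 3 largest increases in the list among members at 2 FPKM or more, with the matched letters in capitals. They lie at chr1:21240335-21240634 and chr2:152105274-152105573 of GRCm38.p6, both on the plus strand, and in Srxn1 the match is on the opposite strand. The other of the 3 is Hmox1, whose promoter was not analysed here.
Gsta3: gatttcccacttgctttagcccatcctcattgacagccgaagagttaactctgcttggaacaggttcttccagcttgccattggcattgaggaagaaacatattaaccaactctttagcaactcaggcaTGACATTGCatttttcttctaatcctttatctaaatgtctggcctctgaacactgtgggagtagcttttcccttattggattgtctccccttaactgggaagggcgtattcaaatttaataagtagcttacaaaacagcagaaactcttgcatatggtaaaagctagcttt
Srxn1: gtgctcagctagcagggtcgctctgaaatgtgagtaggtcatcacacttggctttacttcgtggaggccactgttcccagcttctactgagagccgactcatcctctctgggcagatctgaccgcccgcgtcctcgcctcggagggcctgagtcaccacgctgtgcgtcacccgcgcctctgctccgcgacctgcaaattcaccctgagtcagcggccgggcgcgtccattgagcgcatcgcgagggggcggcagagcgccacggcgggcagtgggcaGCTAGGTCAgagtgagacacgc
Of 46 tested members whose promoter was at hand, 15 (32.6%) held the letters, as did 9 of the 17 higher, 1 of the 4 lower and 5 of the 25 not called. Among all genes with a promoter 14% held them, and among those tested 17.1%.

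Hmox1, on chromosome 8 from 75093621 to 75100589, encodes haem oxygenase. It stood at 313, 308 and 312 FPKM in pECDC replicates 1, 2 and 3 and at 811, 797 and 320.4 FPKM in iECDC replicates 1, 2 and 3, a log2 fold change of 1.03 ± 0.29 (SE; edgeR adjusted p = 0.0393). The groups did not overlap, but the third iECDC library lay just above the pECDC libraries, and without it the log2 fold change was 1.36 (edgeR adjusted p = 4.04e-13). Srxn1, which encodes sulfiredoxin, a repair enzyme of peroxiredoxins, was at 70.4, 68.2 and 66.6 FPKM in pECDCs and 103, 113 and 126 FPKM in iECDCs. The third iECDC library was here the highest, and the increase was 1.65-fold (edgeR adjusted p = 0.000475). Gsta3, a glutathione transferase with close relatives, was 2.32-fold higher, and the ferritin heavy chain gene Fth1 rose from 1640, 1692 and 1756 FPKM to 2107, 2057 and 2400 FPKM (1.28-fold, edgeR adjusted p = 0.0148). The light chain gene Ftl1 was at 1314, 1326 and 1380 FPKM in pECDCs and 1489, 1386 and 1584 FPKM in iECDCs, which did not overlap, and was not called (edgeR adjusted p = 0.231).

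The decreases in the NRF2 list were few and 1 of them was large. Gpx3, the secreted glutathione peroxidase, fell from 11.4, 10.9 and 11.9 FPKM in pECDCs to 0.437, 0.94 and 0.646 FPKM in iECDCs (17.3-fold, edgeR adjusted p = 3.03e-06, and 1.5e-05 with all 9 libraries). The glutathione transferase genes Gstm4 and Mgst3 were 2.24-fold and 1.67-fold lower.

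ATF4 activates amino acid synthesis and transport genes when amino acids run short or the endoplasmic reticulum is stressed. Of 38 tested targets 9 were higher and 2 lower (edgeR), against 16 and 9 without the third iECDC library and 0 and 1 with all 9 libraries. In the same order, the shares of all tested genes were 7.21% and 9.21%, 15.5% and 16.2%, and 1.46% and 3.26%. The list median was 0.20. The serine synthesis genes Phgdh and Psat1 were higher in all iECDC libraries. Phgdh stood at 67.7, 65.2 and 69.7 FPKM in pECDCs and 89.5, 89.8 and 135 FPKM in iECDCs (edgeR adjusted p = 0.0204), and Psat1 at 43.6, 44.6 and 45.9 FPKM and 54.3, 58.3 and 75.4 FPKM (edgeR adjusted p = 0.0202). In both the third iECDC library was the highest, and without it the log2 fold changes were 0.40 and 0.32. The stress-induced chromatin protein gene Nupr1 was 1.57-fold higher, and Ddit4, an inhibitor of mTORC1, had a log2 fold change of -0.45 and was not called (edgeR adjusted p = 0.0527; 0.000481 without the third iECDC library). The NRF2 and ATF4 lists share a cystine transporter gene.

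The retinoid handling genes Crabp1, Dhrs3 and Aldh1a2 were lower, and 2 steroid dehydrogenase genes were higher. Retinol is oxidized in steps to retinoic acid by enzymes such as ALDH1A2, and the acid is bound in cells by CRABP1. Of 36 tested genes of steroid, retinoid and aldehyde metabolism 5 were higher and 11 lower (edgeR, 8 and 13 without the third iECDC library, list median -0.16). Crabp1 stood at 30.3, 29.4 and 28.7 FPKM in pECDCs and 1.36, 1.97 and 2.84 FPKM in iECDCs (14.8-fold lower, edgeR adjusted p = 3.34e-06). The call held with all 9 libraries (edgeR adjusted p = 1.5e-05). Dhrs3, which turns retinaldehyde back to retinol, was 3.09-fold lower, and Aldh1a2, which makes retinoic acid in the epicardium, 1.97-fold lower. Hsd3b6 and Hsd3b1, neighbouring genes of near-identical 3β-hydroxysteroid dehydrogenases on chromosome 3, were 7.47-fold and 6.44-fold higher, and reads could be split between them. Hsd3b6 was at 5.88, 6.13 and 6.8 FPKM in pECDCs and 61.5, 54.7 and 25.2 FPKM in iECDCs, with the third iECDC library the lowest of its group but above all pECDC libraries.

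**Figure D3:**
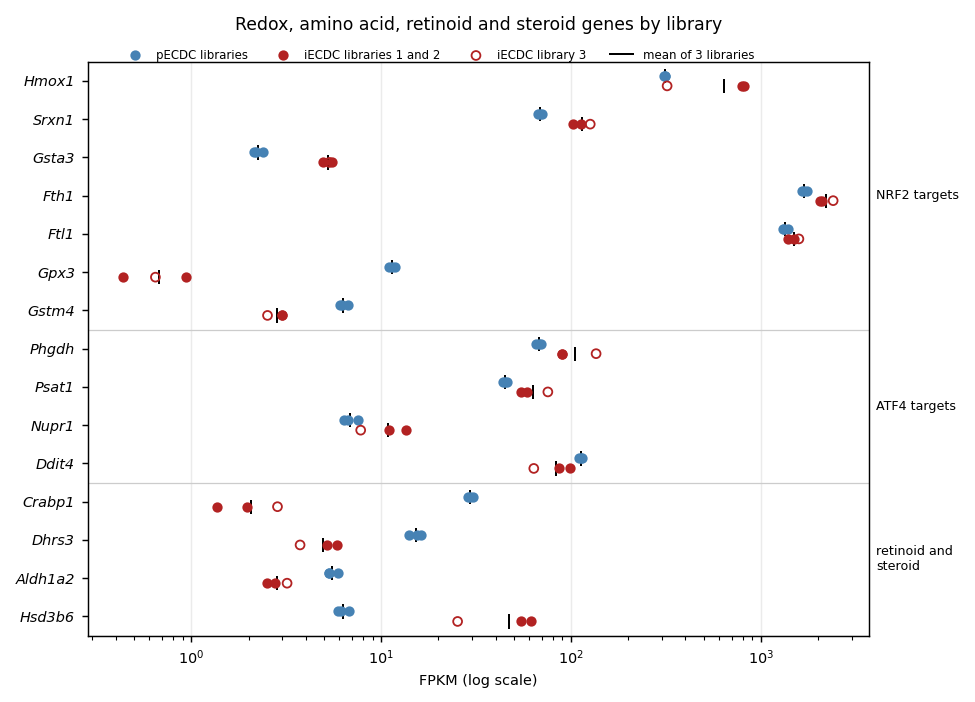
FPKM on a log scale in each library for named NRF2 target, ATF4 target, retinoid and steroid genes, drawn as in the plot of immune genes. The iECDC values of Hmox1 spread from 320 to 811 FPKM with library 3 lowest, whereas Gpx3 and Crabp1 lie far left of all pECDC values.

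In most matrix lists more genes were lower than higher in iECDCs, and type IV collagen genes were among the exceptions. Among all tested genes 9.21% were lower and 7.21% higher. Fibrillar collagens give tissue its strength, and they are trimmed and crosslinked outside the cell, while basement membranes are sheets of laminin, nidogen, perlecan and type IV collagen. Of 22 tested collagen genes 3 were higher and 9 lower, with a median log2 fold change of -0.33, and without the third iECDC library 5 were higher and 13 lower (edgeR). Col3a1, of type III fibrils, stood at 88.7, 96.4 and 102 FPKM in pECDCs and 46.5, 46.4 and 64 FPKM in iECDCs. All iECDC libraries lay below, the third nearest, and the log2 fold change was -0.89 ± 0.12 (SE; edgeR adjusted p = 0.00182; 0.161 with all 9 libraries). Col11a1, which seeds fibrils, and Col18a1, the source of endostatin, were 1.65-fold and 1.84-fold lower, the latter overlapping Slc19a1 on the opposite strand. Col1a1, the most abundant collagen gene, was at 651, 637 and 654 FPKM in pECDCs and 493, 489.9 and 601 FPKM in iECDCs and just passed the threshold (edgeR adjusted p = 0.0459). Its partner chain Col1a2 had a log2 fold change of -0.24 (edgeR adjusted p = 0.0565) and was called without the third iECDC library.

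Col4a1 and Col4a2, which share a promoter region and encode the chains of the common basement membrane collagen, were higher together. Col4a1 stood at 126, 122 and 122 FPKM in pECDCs and 163, 174 and 219 FPKM in iECDCs (log2 fold change 0.57, edgeR adjusted p = 0.00664), and Col4a2 at 92.7, 91.2 and 88.7 FPKM and 131, 137 and 157 FPKM (log2 fold change 0.63, edgeR adjusted p = 0.000992). The third iECDC library was highest for both. They overlap on opposite strands and so may share reads, and Col8a1 was the other collagen gene called higher (1.26-fold).

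Of 26 tested genes for enzymes and chaperones that process collagen, 2 were higher and 6 lower, and without the third iECDC library 3 were higher and 18 lower (edgeR), with a list median of -0.15. Lox, the crosslinking lysyl oxidase, was at 237, 230.3 and 229 FPKM in pECDCs and 140.1, 159 and 171 FPKM in iECDCs (1.49-fold lower, edgeR adjusted p = 0.00169; 0.479 with all 9 libraries). The procollagen protease gene Tll1 and the prolyl hydroxylase gene P3h1 were 1.58-fold and 1.33-fold lower, and Pcolce2, an enhancer of procollagen cleavage, was 1.74-fold higher. The collagen chaperone gene Serpinh1, at 712, 705 and 716 FPKM in pECDCs and 654, 652 and 763 FPKM in iECDCs, overlapped between groups and was called only without the third iECDC library among the edgeR fits (log2 fold change -0.13).

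Elastic fibre genes had 6 lower and 0 higher members of 17 tested (edgeR, 9 and 1 without the third iECDC library, list median -0.28). Efemp1, a fibulin gene on chromosome 11 from 28853204 to 28926743, was nearly silent in iECDCs, with 587, 548 and 575 counts in pECDC replicates 1, 2 and 3 and 5, 5 and 0 counts in iECDC replicates 1, 2 and 3 (log2 fold change -7.01, edgeR adjusted p = 1.66e-06). Fbln5, needed to assemble elastin, and Mfap2, a microfibril protein, were 1.53-fold and 1.41-fold lower. Fbln2, the most abundant member, had a log2 fold change of 0.04 and overlapping groups. Of 7 tested small leucine-rich proteoglycan genes 1 was higher and 2 lower (edgeR, 2 and 4 without the third iECDC library, list median -0.54). The abundant Bgn (biglycan) was at 504, 489 and 496 FPKM in pECDCs and 532, 539 and 559 FPKM in iECDCs and was not called (edgeR adjusted p = 0.244; 0.0207 without the third iECDC library).

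Of 14 tested basement membrane genes 1 was higher and 6 lower (edgeR, 1 and 8 without the third iECDC library, list median -0.21). Nid1, which links laminin to collagen IV, stood at 314, 304 and 291 FPKM in pECDCs and 159, 182 and 251 FPKM in iECDCs, with the third iECDC library between the others and the pECDCs. Its log2 fold change was -0.63 with that library and -0.84 without it (edgeR adjusted p = 0.0183 and 6.67e-09). The proteoglycan gene Agrn and the laminin chain gene Lama4 were 1.97-fold and 1.76-fold lower, also with all 9 libraries in the fit (edgeR adjusted p = 0.000442 and 0.00295). Npnt, an integrin ligand, went the other way, from 20.4, 20.9 and 18.8 FPKM in pECDCs to 47.9, 49.1 and 75.2 FPKM in iECDCs (2.83-fold higher, edgeR adjusted p = 0.000384). Hspg2 (perlecan) was at 111, 108 and 97.3 FPKM in pECDCs and 84.3, 98.7 and 137 FPKM in iECDCs, and only the third iECDC library lay above the pECDCs. Without that library it was called lower (log2 fold change -0.21, edgeR adjusted p = 0.0141).

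Matricellular proteins tune adhesion and signalling without building fibres, and 3 of 18 tested genes were higher and 3 lower (edgeR, 4 and 6 without the third iECDC library, list median -0.13). Tgfbi and Thbs2 were 6.7-fold and 2.44-fold lower. Smoc1, an antagonist of BMP signalling, rose from 1.67, 1.71 and 1.52 FPKM in pECDCs to 13.6, 14 and 10.5 FPKM in iECDCs (7.7-fold, edgeR adjusted p = 2.31e-06). The YAP-responsive genes Ctgf and Cyr61 were 1.36-fold and 1.19-fold higher (edgeR adjusted p = 0.423 and 0.417 with all 9 libraries). Spp1 (osteopontin) varied widely among iECDC libraries, at 950.4, 728 and 290.3 FPKM, around pECDC values of 653, 634 and 635 FPKM, and was called only without the third (log2 fold change 0.38, edgeR adjusted p = 0.000913).

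Proteases of the matrix and their inhibitors had 2 higher and 9 lower members of 28 tested (edgeR, 3 and 12 without the third iECDC library, list median -0.16). Mmp3 (stromelysin) fell from 8.22, 10.2 and 10.7 FPKM in pECDCs to 0.88, 0.844 and 0.434 FPKM in iECDCs (13.3-fold, edgeR adjusted p = 1.15e-05). Adamts1 was 1.8-fold lower. The inhibitors differed in direction, with Timp3 at 126, 120.1 and 115 FPKM in pECDCs and 73.7, 77.2 and 80.6 FPKM in iECDCs (1.57-fold lower, edgeR adjusted p = 0.000332) and Timp1 1.18-fold higher (edgeR adjusted p = 0.0289; 0.652 with all 9 libraries). Mmp14, the membrane-bound collagenase, had a log2 fold change of 0.01.

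**Figure D4:**
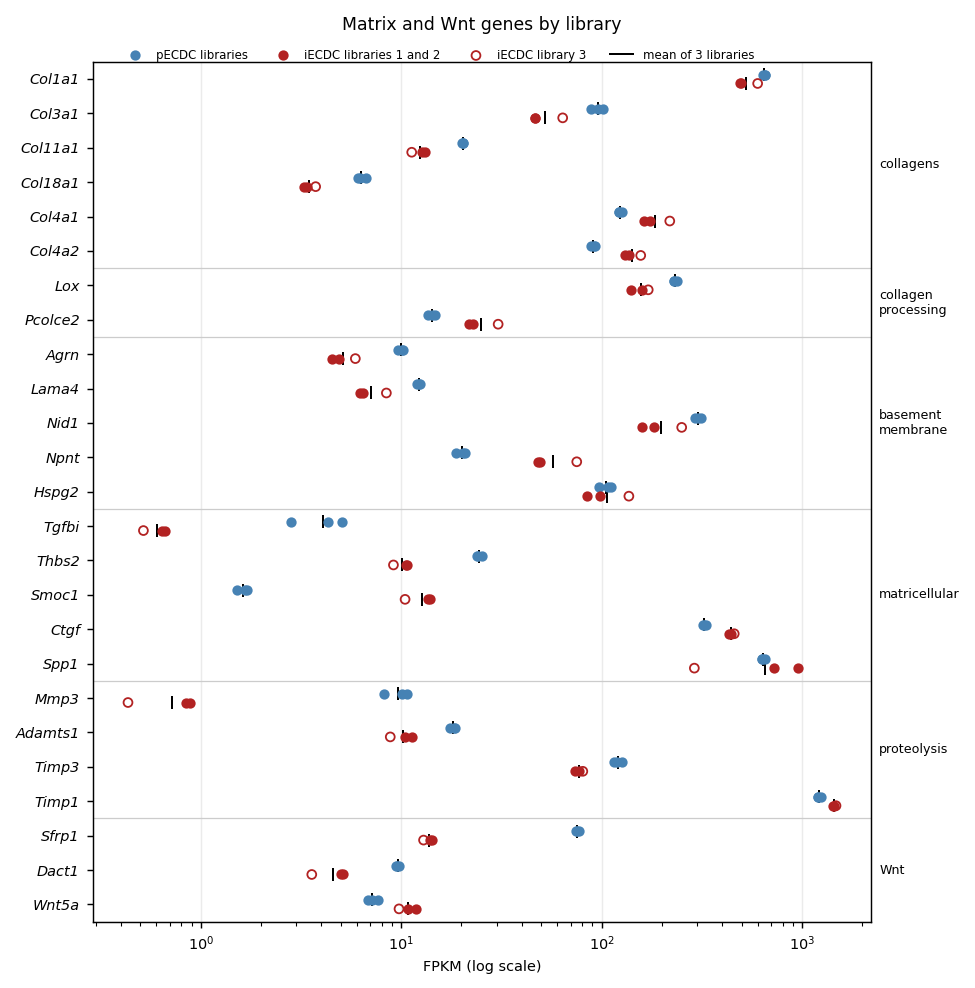
FPKM on a log scale in each library for named matrix, protease and Wnt genes, drawn as in the plot of immune genes. Col4a1, Col4a2 and Npnt lie right of the pECDC values and Col3a1, Lox, Nid1 and Sfrp1 left of them, and library 3 is the open point.

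Wnt ligands signal through Frizzled receptors, and secreted antagonists such as SFRP1 bind the ligands. Of 41 tested Wnt pathway genes 3 were higher and 10 lower (edgeR, 6 and 17 without the third iECDC library, list median -0.15). For this list and the Notch list below, the shares of all tested genes were 7.21% higher and 9.21% lower. Sfrp1, on chromosome 8 from 23411502 to 23449632, stood at 75.7, 74.4 and 77 FPKM in pECDCs and 14, 14.3 and 12.9 FPKM in iECDCs, with each group tightly together. Its log2 fold change was -2.47 ± 0.07 (SE; edgeR adjusted p = 2.33e-07). Frzb, a related antagonist, and Dact1, an intracellular one, were 2.06-fold and 2.12-fold lower. The ligand gene Wnt5a was 1.49-fold higher and Nkd2, an inhibitor of Dishevelled, 1.36-fold higher, while Ctnnb1 (β-catenin) had a log2 fold change of 0.05. Of 17 tested Notch pathway genes 2 were higher and 3 lower (edgeR, 4 and 7 without the third iECDC library, list median -0.07), among them the receptor gene Notch3 (1.65-fold lower) and Lfng, which glycosylates the receptors (1.69-fold higher).

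Developmental transcription factor genes, which set regional identity in the embryo, had 7 higher and 25 lower of 72 tested (edgeR, 11 and 34 without the third iECDC library, list median -0.16). Barx1, a homeobox gene of foregut mesenchyme, had 369, 349 and 385 counts in pECDCs and 1, 1 and 0 counts in iECDCs, at least 98.5-fold lower against the floor of 3 counts in a library. Nkx2-5, an early cardiac factor, had 80, 72 and 62 counts in pECDCs and 0 in each iECDC library, at least 19.1-fold lower. The nuclear receptor gene Nr2f1 was 1.81-fold lower, with an antisense RNA over it. Pax3, Gata2 and Foxf2 were 1.78-fold, 1.37-fold and 1.36-fold higher. Gata4, a cardiac factor among the most abundant of the list, was at 59.8, 61.1 and 59.1 FPKM in pECDCs and 55.2, 57.1 and 60.9 FPKM in iECDCs and overlapped between groups, as did Osr1, which was higher without the third iECDC library (log2 fold change 0.15, edgeR adjusted p = 0.0127). Snai1, a factor of epithelial-mesenchymal transition, was not called (log2 fold change -0.28) but was called without the third iECDC library (-0.43). Of 14 tested Hox genes, which mark position along the body axis, 0 were higher and 3 lower (edgeR, 0 and 5 without the third iECDC library, list median -0.16). The more abundant Hoxb4 and Hoxa5 had log2 fold changes of -0.12 and -0.44 without a call, though Hoxa5 was called without the third iECDC library (edgeR adjusted p = 0.0374). Hoxa5 overlaps Hoxa3 on the same strand, so their reads may be mixed.

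Among adhesion and guidance genes more were lower than higher, against 9.21% lower and 7.21% higher of all tested genes. Of 50 tested cadherin and protocadherin genes 6 were higher and 21 lower (edgeR, 7 and 26 without the third iECDC library, list median -0.46). Pcdh19 and Pcdh9 were 2.27-fold and 1.55-fold lower, and so was Pcdhb17 (1.65-fold), which belongs to a cluster of similar genes. Pcdh18 was 1.43-fold higher, and the main cadherin of these cells, Cdh2 (N-cadherin), was at 90.0, 91.6 and 92.6 FPKM in pECDCs and 101, 107 and 95 FPKM in iECDCs, called without the third iECDC library (edgeR adjusted p = 0.0016) but not with it (edgeR adjusted p = 0.213). Of 20 tested integrin genes 1 was higher and 6 lower (edgeR, 2 and 7 without the third iECDC library, list median -0.24). Itga11, a receptor for fibrillar collagen, fell from 3.46, 3.64 and 3.25 FPKM in pECDCs to 0.338, 0.427 and 0.431 FPKM in iECDCs (8.78-fold, edgeR adjusted p = 1.99e-06), and Itgb3 was 1.99-fold lower.

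Of 56 tested axon guidance genes 5 were higher and 15 lower (edgeR, 10 and 24 without the third iECDC library, list median -0.11). Sema3c, a secreted semaphorin of the outflow tract, stood at 13, 12.6 and 12.4 FPKM in pECDCs and 4.06, 4.55 and 3.65 FPKM in iECDCs (3.13-fold lower, edgeR adjusted p = 5.26e-06). Sema3d, also an epicardial marker, and the ligand gene Slit3 were 2.47-fold and 2.36-fold lower. The ephrin receptor gene Epha2 and Sema7a were 1.62-fold and 2.61-fold higher.

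In some families the third iECDC library lay apart from the other 2. Smooth muscle contractile genes, targets of SRF and its cofactors, were 0.44 higher in that library on the log2 scale, as the median of 29 tested genes against the mean of the other 2 iECDC libraries. The list median against pECDCs was 0.20 with it and 0.04 without it, and 4 and 10 genes were higher and 1 and 6 lower (edgeR). Acta2, smooth muscle actin, stood at 737, 714 and 733 FPKM in pECDCs and 812, 848 and 1898 FPKM in iECDCs and was not called (edgeR adjusted p = 0.129), though without that library it was (log2 fold change 0.18). Srf itself was 1.36-fold higher and Csrp2, a muscle LIM protein gene, 1.43-fold higher (edgeR adjusted p = 0.0176 and 0.0202). Cholesterol synthesis genes were 0.40 higher in that library on the same scale, and their median of 0.05 became -0.12 without it, with 0 and 1 higher and 3 and 7 lower of 25 (edgeR). Srebf2, the regulator of the pathway, was at 18.5, 18.7 and 18.5 FPKM in pECDCs and 18.1, 18.3 and 28.5 FPKM in iECDCs, so the first and second iECDC libraries lay below every pECDC library and the third far above. Prostaglandin genes were lower in that library by a median of 0.26, and of 17 tested 4 were higher and 1 lower (edgeR, 7 and 3 without the third iECDC library, list median 0.14). Ptgs2, the inducible cyclooxygenase, was at 100.3, 98.4 and 96.1 FPKM in pECDCs and 189.6, 187 and 72 FPKM in iECDCs and was called without that library (edgeR adjusted p = 5.55e-11) but not with it (edgeR adjusted p = 0.206). The synthase genes Ptges and Ptgis were 1.51-fold and 1.26-fold higher (edgeR adjusted p = 0.00166 and 0.0253).

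**Figure D5:**
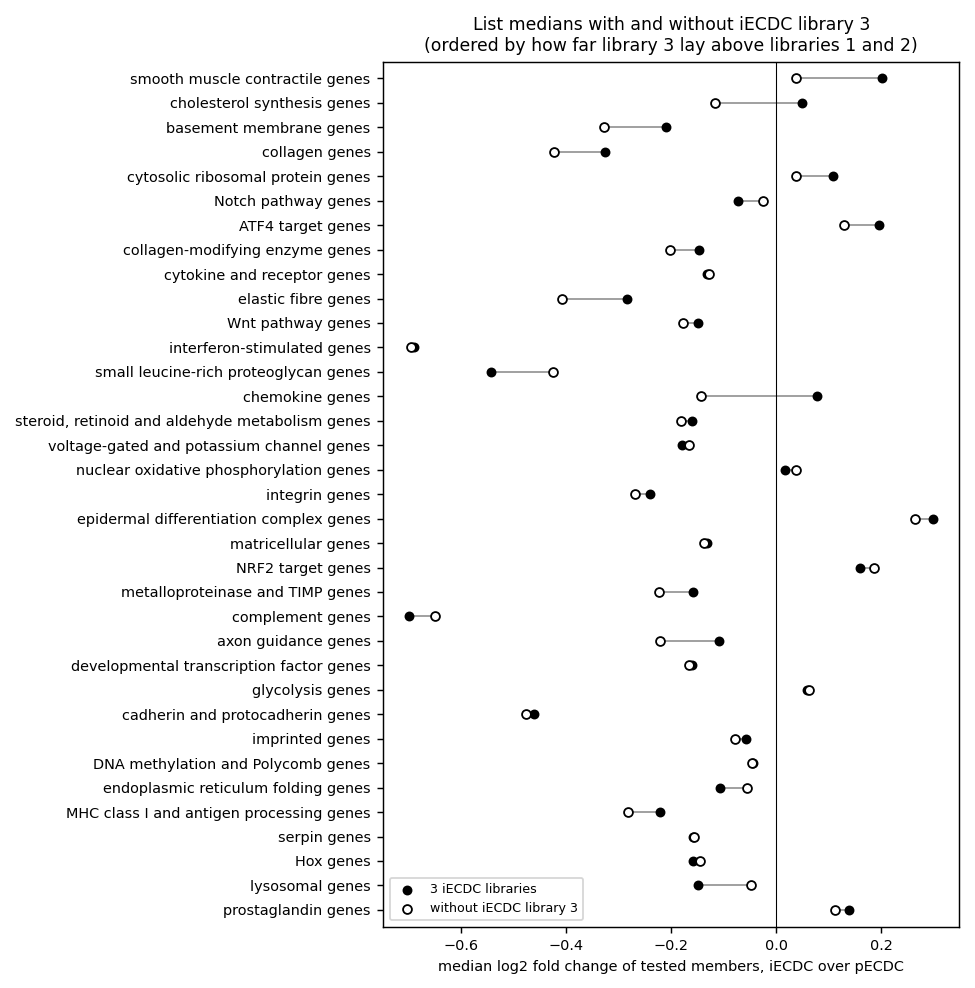
Median log2 fold change, iECDC over pECDC, of the tested members of 35 lists with all iECDC libraries (filled) and without library 3 (open). Lists are ordered by how far library 3 lay above libraries 1 and 2, from smooth muscle contractile genes (0.44) to prostaglandin genes (-0.26), and the medians of interferon-stimulated and NRF2 target genes differ little between the points.

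Of oxidative phosphorylation and ribosomal protein genes few were called, while glycolysis genes were called in both directions. Of 80 tested nuclear genes of oxidative phosphorylation 0 were higher and 1 lower, and of 82 tested cytosolic ribosomal protein genes 1 was higher and 1 lower, against the 7.21% and 9.21% of all tested genes (edgeR). Without the third iECDC library 6 were higher and 2 lower in the former list and 11 higher and 2 lower in the latter, against 15.5% and 16.2% of all tested genes. The list median of ribosomal protein genes was 0.11, and 0.04 without the third iECDC library. That of oxidative phosphorylation genes was 0.02 and -0.001 with upper-quartile scaling. Cox6a1, a subunit of cytochrome oxidase, was at 518, 546 and 521 FPKM in pECDCs and 574, 504 and 489.8 FPKM in iECDCs, and the groups overlapped. Ribosomal protein genes have many processed copies in the genome, so their counts are uncertain. Of 30 tested glycolysis genes 4 were higher and 5 lower (edgeR, 12 and 8 without the third iECDC library, list median 0.06). Eno3 and Pdk4, which holds pyruvate back from the mitochondria, were 1.7-fold and 2.58-fold higher, the lactate exporter gene Slc16a3 was 1.61-fold lower, and Ldha had a log2 fold change of 0.10 (edgeR adjusted p = 0.284; 0.0246 without the third iECDC library).

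In lysosomal genes 19% were lower and 6.35% higher, and in endoplasmic reticulum folding genes 23.5% were lower and 1.96% higher. Among all tested genes 9.21% were lower and 7.21% higher. Of DNA methylation and Polycomb genes 8.33% were higher and 4.17% lower, near or below the shares of all tested genes. Without the third iECDC library 16.2% of all tested genes were lower and 15.5% higher. Of 63 tested lysosomal genes 4 were higher and 12 lower (edgeR, 9 and 20 without the third iECDC library). The list median was -0.15 with that library and -0.05 without it. The membrane protein gene Scarb2 and the protease gene Ctsc were 1.82-fold and 1.89-fold lower, with Scarb2 at 35.4, 35.8 and 37.4 FPKM in pECDCs and 19.6, 20.1 and 20.4 FPKM in iECDCs, and Gm2a, an activator of ganglioside breakdown, 1.48-fold higher. Of 51 tested endoplasmic reticulum folding genes 1 was higher and 12 lower (edgeR, 3 and 19 without the third iECDC library, list median -0.11), among the latter Eif2ak3, the stress sensor PERK (1.65-fold), and Fkbp14, a collagen foldase that overlaps another gene (1.66-fold). Of 48 tested DNA methylation and Polycomb genes 4 were higher and 2 lower (edgeR, 10 and 4 without the third iECDC library, list median -0.04), with Ezh2, the H3K27 methyltransferase, at 11.5, 11.6 and 11.3 FPKM in pECDCs and 16.3, 16.9 and 15.7 FPKM in iECDCs (edgeR adjusted p = 0.000822), and Phc2 1.52-fold higher. Of 36 tested imprinted genes 2 were higher and 7 lower (edgeR, 8 and 9 without the third iECDC library, list median -0.06), including the neighbouring noncoding RNAs Meg3 and Rian (1.77-fold and 1.38-fold lower) and Igf2r (1.35-fold lower). Of 37 tested channel genes 2 were higher and 7 lower (edgeR, 4 and 11 without the third iECDC library, list median -0.18), with Kcnab1 2.27-fold lower and Kcnk2, which overlaps a pseudogene, 1.52-fold higher. Of 15 tested genes of the epidermal differentiation complex 5 were higher and 1 lower (edgeR, 8 and 1 without the third iECDC library, list median 0.30), and Lce1g, of a family of close copies, rose from 2.2, 1.57 and 2.08 FPKM in pECDCs to 16.5, 17.4 and 19.1 FPKM in iECDCs.

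Outside the lists, protein-coding genes ranked 6 to 15 by fold in each direction, at 10 FPKM or more and without overlap of the libraries, included secreted and signalling proteins. Spon2, a matrix protein of innate immunity, fell from 96.7, 91.7 and 99.1 FPKM in pECDCs to 9.14, 7.27 and 5.59 FPKM in iECDCs (13.1-fold, edgeR adjusted p = 1.66e-06). Anxa8, a membrane-binding annexin, was 20.1-fold lower, the hormone gene Stc1 8.82-fold, the endoderm factor gene Foxa2 6.89-fold, the necroptosis kinase gene Ripk3 4.51-fold, the neuropeptide precursor gene Vgf 4.39-fold and Samd5 4.31-fold. All of these were also called with all 9 libraries in the fit (edgeR adjusted p at most 0.00814). Among the increases, Asb5, a ubiquitin ligase adaptor of muscle that overlaps the more abundant Spcs3 on the opposite strand, rose from 8.23, 8.53 and 8.85 FPKM in pECDCs to 30.2, 29.6 and 31.4 FPKM in iECDCs (3.53-fold, edgeR adjusted p = 1.53e-06). Apoe, the lipid carrier, was 2.3-fold higher, the G protein regulator gene Rgs16 2.43-fold, the β-tubulin gene Tubb4a 2.45-fold, Elfn1 2.87-fold and Ms4a4d 2.55-fold. In absolute FPKM the largest decreases among called genes were those of Col1a1, Ifitm3, Nid1, Mgp and Bst2, and those of Vim, Hmox1, Fth1 and Actb were among the largest increases. Mgp, an inhibitor of calcification, stood at 126, 153 and 157 FPKM in pECDCs and 39.6, 31 and 50.3 FPKM in iECDCs (3.65-fold lower, edgeR adjusted p = 0.000108).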

How the data were processed

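RNA sequencing libraries of pECDCs and iECDCs, 3 each, were compared. The authors deposited raw read counts for each gene, FPKM values made from them, and fold changes and p-values of their own DESeq comparisons, which were not used. The submitters' processing notes name TopHat2 2.0.9, Bowtie2 2.0.6 and mm9, whereas for 53585 of 54532 genes the deposited start and end are those of GENCODE M21 on GRCm38, which is used for coordinates here. The strand setting of the counting is not given in the sources used here. Library kits and platforms differ between labels and methods. For Pkm in pECDC replicate 3 the deposited count of 74461 was not the 91686 its FPKM gives, and it was kept. 27 symbols turned into dates were restored by identifier.

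The counts of the 6 libraries were fitted in edgeR 4.0.16 under R 4.3.3 (TMM, filterByExpr with minimum count 10 and minimum total 15, quasi-likelihood F test, Benjamini-Hochberg adjustment, called at an adjusted p under 0.05), and the standard error is the log2 fold change divided by the square root of F. The common biological coefficient of variation was 0.0919. On simulated counts of this comparison, with 200 genes changed by 1 on the log2 scale, 171 were recovered, with 19 false calls among 13552 unchanged genes. FPKM is given as the level per length and the fit's fold as the difference. A group with at most 3 counts in every library was taken as at the floor, and folds against it are lower bounds. Promoters, from RefSeq on GRCm38.p6, span 300 bases.

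Members and gene lists were chosen with earlier results of these data known. Named are, in each list, up to 3 increases and 3 decreases, the largest among called members with at least 2 FPKM in the higher group, and the 3 most abundant members. Outside the lists they are the protein-coding genes ranked 6 to 15 by fold in each direction at 10 FPKM or more without overlap, the 5 largest FPKM differences in each direction, and sex-linked, telomerase and cell type marker genes as checks. Genes that share reads with a named gene appear for that relation, and some genes the rule names are not reported here. Alternatives were DESeq2 1.42.0, limma 3.58.1 (voom with sample quality weights, and log2 of FPKM plus 1 or 0.1), other scaling and filters, all 9 libraries, the replicate number as a block, each library left out, and a log2 fold change of at least 1. Lists were handled in pandas 2.3.3 and numpy 2.4.6 under python 3.11.15, and matplotlib 3.10.9 drew the figures.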

Additional observations from a re-analysis of the deposited data

How the results depend on the processing

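Of 2258 called genes, 992 higher and 1266 lower, counts stayed within 1.5 times under DESeq2, RLE and upper-quartile scaling, both count filters, limma on FPKM, the replicate block and without iECDC replicates 1 or 2. All 9 libraries in the fit gave 671 (208 higher, 463 lower), limma-voom with sample quality weights 4297 (2077 and 2220), and a log2 fold change of at least 1 left 512 (140 and 372). Leaving out 1 library gave 1036 to 4467 calls, 360 to 2180 higher and 676 to 2287 lower. The highest count came without iECDC replicate 3, which had a voom quality weight of 0.119 against 0.828 to 2.8 for the others. Leaving out pECDC replicates 1, 2 and 3 gave 1056, 1036 and 1065 calls, against 2126 and 1829 without iECDC replicates 1 and 2. The replicate block gave 1791 calls. Correlations of same-numbered libraries' deviations were 0.0116, 0.0373 and -0.0456, against -0.0846 to 0.0775 for other pairs. The iECDC libraries did not each correlate best with their own number. With all these values near 0, they cannot show whether same-numbered libraries share an origin. Of 149 named genes called, 149 were called without iECDC replicate 3, 139 with the block and 79 with all 9 libraries. In every alternative in which they were tested 75 were called, a count that leaves out the setting of a log2 fold change of at least 1. Hspg2, not called, ranged from -0.21 without iECDC replicate 3, where it was called, to 0.15 without iECDC replicate 1. Between TMM, RLE and upper-quartile scaling, only the list median of oxidative phosphorylation genes changed sign, with upper-quartile scaling. Without iECDC replicate 3 the medians of chemokine genes (0.08 to -0.14), cholesterol synthesis genes (0.05 to -0.12) and haematopoietic markers (-0.04 to 0.15) changed sign. Genes near the floor of 3 counts could show large changes only. The causes of these differences were not tested.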

Other observations

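On chromosome 4, with 857 tested genes, edgeR's quasi-likelihood test called 108 genes higher in iECDCs and 60 lower, with a median log2 fold change of 0.061. The other autosomes had medians from -0.038 to 0.031. The 7 tested genes of the Y chromosome had a median of -0.70, 5 of them lower and 0 higher, and the 456 tested genes of the X chromosome a median of -0.002. Mitochondrial genes took 1.16% to 1.4% of counts in all 6 libraries, lowest in the third iECDC library. The 50 most abundant genes took 16% of that library and 14% to 14.6% of the others. These chromosome values were chosen after they were seen and were not tested further.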
